A study of Mus musculus with 18 samples.

Results

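The knock-out of *Cldn10* was compared between 2 segments of the same tubule, and the quantity described here is how far its effect in one segment differed from its effect in the other. All 18 pools of the deposited table entered one model, 18 of 18, with the genotype and the segment read from the name of each pool. Genes that reached 3 CPM (estimated counts expressed relative to the size of the library) in 3 pools or more were kept, which left 12586 of 55401 genes. For each gene the interaction is the log2 difference between cKO and WT in MTAL minus the log2 difference between cKO and WT in CTAL. A positive value means that the gene responded more upward, or less downward, in MTAL.

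Thick ascending limbs were dissected from liberase-treated kidneys of adult male mice (C57BL/6J in the labels, a mostly C57BL/6 background in the methods), from the cortex (CTAL) or from the outer medulla, in its inner stripe (MTAL), and each pool holds limbs of 1 animal. The cKO mice carried floxed *Cldn10* alleles (Cldn10 fl/fl) and a Cre recombinase under the promoter of *Cdh16* (Ksp-Cre), which is active along the distal nephron, so the deletion was not restricted to the thick limb. The WT mice were littermates with the same floxed alleles and no Cre. There were 5 pools of WT CTAL, 5 of cKO CTAL, 5 of WT MTAL and 3 of cKO MTAL, and total estimated counts ran from 10824328 to 62339991 per pool (13275285 to 19608788 in cKO MTAL). The p-values below measure the spread between these pools. The paper reports that nephrocalcinosis in the outer medulla made cKO MTAL very hard to dissect. It also reports that further cKO MTAL pools were left out after quality control. What this meant for the values of the cKO MTAL pools was not tested.

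The thick ascending limb reabsorbs sodium chloride through the cotransporter NKCC2 and carries cations between its cells. In the medulla the paracellular pathway is mainly formed by claudin-10b, which favours sodium. In the cortex many tight junctions are built of claudin-16 and claudin-19, which pass calcium and magnesium, and claudin-14, the calcium-sensing receptor and the parathyroid hormone receptor regulate this pathway. The loss of claudin-10 in this limb is known for high blood magnesium and calcium deposits in the kidney, which makes the medullary part of the response a question of its own.

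Some properties of single pools touch what follows. The pool named WT CTAL replicate 1 carries a knock-out genotype in its title and its genotype label, and its *Cldn10* level, 448 CPM, lay among those of the WT pools. It was used as WT, and with the opposite label 17 genes were called where 36 were called here. All mice were male by the methods. *Xist*, which male cells do not express, lay between 6.52 and 8.80 CPM in 7 pools and between 0.234 and 0.742 CPM in the other 11, while transcripts of Y-linked genes summed to between 88.2 and 128 CPM in every pool. Pools with *Xist* made up 4 of the 5 WT MTAL pools and 0 of the 3 cKO MTAL pools, so that the genotype effect in MTAL and the presence of *Xist* cannot be fully told apart. In the CTAL they were 2 of 5 WT and 1 of 5 cKO pools.

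The targeted gene fell in both segments, in pools that the study had chosen in part by its level. A cKO CTAL pool with *Cldn10* near the WT level was excluded, and only cKO pools with clearly lower *Cldn10* were retained. The fall is therefore not independent of that choice. *Cldn10* (chr14:118787908-118875489, mm10, plus strand) was at 386 to 582 CPM in the WT CTAL pools and at 157 to 186 in the cKO CTAL pools. In the MTAL it was at 656 to 814 CPM in the WT pools and at 297, 152 and 219 CPM in cKO replicates 16, 18 and 20. The log2 effect was -1.76 in MTAL and -1.54 in CTAL, and their difference was -0.23 ± 0.20 (SE, adjusted p = 0.656 by edgeR's quasi-likelihood test). Among the pools retained, the knock-out of the gene itself was therefore not shown to differ between the segments. Of the 8 cKO pools, cKO MTAL replicate 16 kept the highest level.

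The genotype effect was called for 2136 of the 12586 genes in MTAL (17%), of which 1305 were more (10.4%) and 831 less expressed (6.6%) in cKO, and for 101 genes in CTAL (0.802%), of which 58 were more (0.461%) and 43 less expressed (0.342%). With the MTAL pools fitted alone, 845 genes were called, and the CTAL pools alone gave 143. A gene was called at a Benjamini-Hochberg adjusted p under 0.05 over all genes tested. The interaction was called for 36 genes, or 0.286% of those tested. It was positive for 33 of them (0.262%) and negative for 3 (0.0238%), and 29 had an absolute log2 difference of at least 1 (0.23%). Without the adjustment, p was under 0.05 for 1128 genes with a positive interaction (8.96%) and for 723 with a negative one (5.74%), or 14.7% of all genes together. The number of called effects in a segment and the number of called differences between the segments are therefore of different order, and a gene called in MTAL but not in CTAL was not by this shown to differ.

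All 36 genes were called in MTAL, 7 of them also in CTAL with the same sign, and 0 in CTAL alone. The 101 genes called in CTAL moved in the same direction in MTAL, all 101 of them, and 95 of these were also called there. Their median absolute log2 effect was 0.998 in CTAL and their median effect in MTAL, in the same direction, was 1.29. The 2136 genes called in MTAL had a median absolute log2 effect of 0.81 there and of 0.14 in CTAL, signed as in MTAL. Across all genes tested the effects in the 2 segments, which share no pool, had Pearson's r = 0.41 and Spearman's rho = 0.33 as a description, since genes are not independent replicates. The plot of the effects in both segments shows 33 of the called genes above the line of equal effects and 3 below it.

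**Figure D1:**
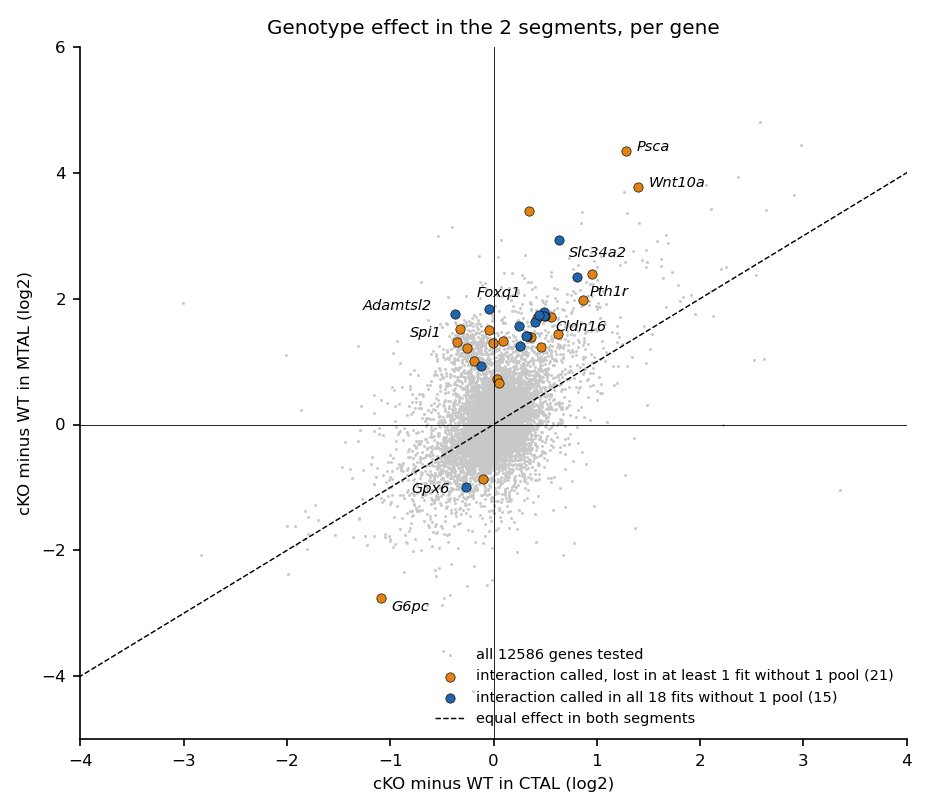
Log2 difference between cKO and WT in CTAL (horizontal axis) and in MTAL (vertical axis) for each of the 12586 genes tested (grey, 5 lie outside the axes); blue points are the 15 genes whose interaction was called in all 18 fits without 1 pool, and orange points the 21 that lost the call in at least 1 of them. The 33 genes with a positive interaction lie above the dashed line of equal effects and all have a positive effect in MTAL, and the other 3 lie below it.

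The genes that led the comparison are known from the cortical thick limb and the segments after it. *Foxq1*, a forkhead transcription factor (chr13:31556134-31560976, plus strand, with a gene on the opposite strand), had the smallest adjusted p together with *Cldn16*, the claudin of paracellular magnesium transport (chr16:26463135-26482765, plus strand). *Foxq1* was at 24.8, 19.3, 17.2, 19.3 and 21.9 CPM in the WT MTAL pools and at 55.3, 60.1 and 103 CPM in the cKO MTAL pools. In the CTAL it was at 73.0 to 128 CPM in WT and at 76.7 to 112 CPM in cKO. The MTAL groups did not overlap and the CTAL groups did. The interaction of *Foxq1* was 1.88 ± 0.25 (SE, adjusted p = 0.00121), with a log2 effect of 1.83 in MTAL and of -0.05 in CTAL.

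*Cldn16* was at 25.1, 21.8, 20.3, 20.8 and 19.6 CPM in the WT MTAL pools and at 63.2, 86.1 and 63.3 CPM in the cKO MTAL pools. In the CTAL the WT pools had 67.7 to 92.6 CPM and the cKO pools 96.5 to 124 CPM. Neither segment's groups overlapped, so that this gene rose in both, by 1.72 in MTAL (adjusted p = 2.28e-08) and by 0.50 in CTAL (adjusted p = 0.0247) on the log2 scale. Its interaction was 1.23 ± 0.16 (adjusted p = 0.00121), and the cKO MTAL pools reached the range of the WT CTAL pools in 1 of 3 cases, replicate 18.

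*Pth1r*, the receptor of parathyroid hormone, behaved in the same way with a larger change. It was at 68.7, 63.5, 43.8, 44.7 and 52.7 CPM in the WT MTAL pools and at 186, 339 and 305 CPM in the cKO MTAL pools. The WT CTAL pools had 196 to 306 CPM and the cKO CTAL pools 390.1 to 503 CPM. Its log2 effect was 2.34 in MTAL and 0.81 in CTAL (adjusted p = 0.00735), and the interaction was 1.53 ± 0.23 (adjusted p = 0.00356). *Umod*, which encodes uromodulin, the main protein of normal urine, changed less. It was at 23928 to 31930 CPM in WT MTAL and at 42735, 44923 and 47991 CPM in cKO MTAL, while the CTAL groups overlapped at 44748 to 51477 and 47664 to 55553 CPM. Its interaction was 0.61 ± 0.13 (adjusted p = 0.045), and it kept the call in 8 of the 18 fits that left out 1 pool of any group, with a largest adjusted p of 0.0859.

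These 3 genes, *Cldn16*, *Pth1r* and *Umod*, were the called members of the list of divalent cation handling. Of its 20 members tested 3 were called and 10 had an unadjusted p under 0.05, all 10 with a positive interaction (50.0%, beside 8.96% of all genes tested). The list's median interaction was 0.50, beside -0.01 over all genes, and 17 of the 20 were positive. In MTAL 14 of the 20 rose and 0 fell, where 10.4% of all genes rose and 6.6% fell. In CTAL 4 rose and 0 fell, where 0.461% and 0.342% of all genes did. The median log2 effect of the list was 0.68 in MTAL and 0.18 in CTAL. Its median interaction lay between 0.42 and 0.67 when each pool was left out in turn. Members of the list were among the genes that the study measured on these pools, so its direction is not independent evidence.

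Among the members that were not called, *Kl*, which encodes klotho, a cofactor of fibroblast growth factor signalling, was at 209 to 254 CPM in WT MTAL and at 452, 558 and 608 CPM in cKO MTAL, with an interaction of 0.61 (adjusted p = 0.0626). It was called in both segments, at 1.23 in MTAL and 0.62 in CTAL. *Casr*, the calcium-sensing receptor, was at 421 to 531 CPM in WT MTAL and at 700.5, 798 and 807 CPM in cKO MTAL. Its groups overlapped in the CTAL, at 811 to 1081 and 1047 to 1163 CPM, and its interaction was 0.49 ± 0.13 (adjusted p = 0.0854). *Vdr*, the vitamin D receptor, followed with 0.60 (adjusted p = 0.0967), *S100g*, which encodes the calcium-binding protein calbindin-D9k, with 1.63 (adjusted p = 0.111), and *Cldn19*, the partner of claudin-16, with 0.48 (adjusted p = 0.111). With all 18 pools, the interactions of these 5 genes did not pass the threshold.

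*Cldn14*, which encodes the claudin that blocks claudin-16, had the largest interaction of the list, 2.23 ± 0.73, without being called (adjusted p = 0.141). It rose in both segments, by 4.80 in MTAL and by 2.58 in CTAL. The WT MTAL pools had 1.39, 5.04, 1.64, 1.33 and 1.56 CPM and the cKO MTAL pools 18.5, 19.3 and 154 CPM, so that cKO replicate 20 alone stood far above the others. Without that pool its interaction was 0.50 (adjusted p = 0.828), and without cKO MTAL replicate 18 it was 2.66 (adjusted p = 0.0298). A gap between the segments for *Cldn14* therefore rested on cKO MTAL replicate 20.

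The transporters of sodium chloride and potassium did not move as a list. The median interaction of the 34 members tested was 0.04, beside -0.01 over all genes, with a median log2 effect of 0.13 in MTAL and of 0.02 in CTAL. In MTAL 5 members rose and 5 fell, where 10.4% of all genes rose and 6.6% fell. In CTAL 1 rose and 1 fell, where 0.461% and 0.342% of all genes did.

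The main carriers of the limb gave small interactions. *Slc12a1*, which encodes NKCC2, was at 14892 to 16221 CPM in WT MTAL and at 14502, 11477 and 14730 CPM in cKO MTAL, with an interaction of -0.14 ± 0.13 (adjusted p = 0.69). *Kcnj1*, the potassium channel ROMK, had 0.06 ± 0.14 (adjusted p = 0.888) and *Bsnd*, which encodes barttin, 0.23 ± 0.22 (adjusted p = 0.69). These values bound a difference between the segments for these carriers by their errors and do not show that it was 0.

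**Figure D2:**
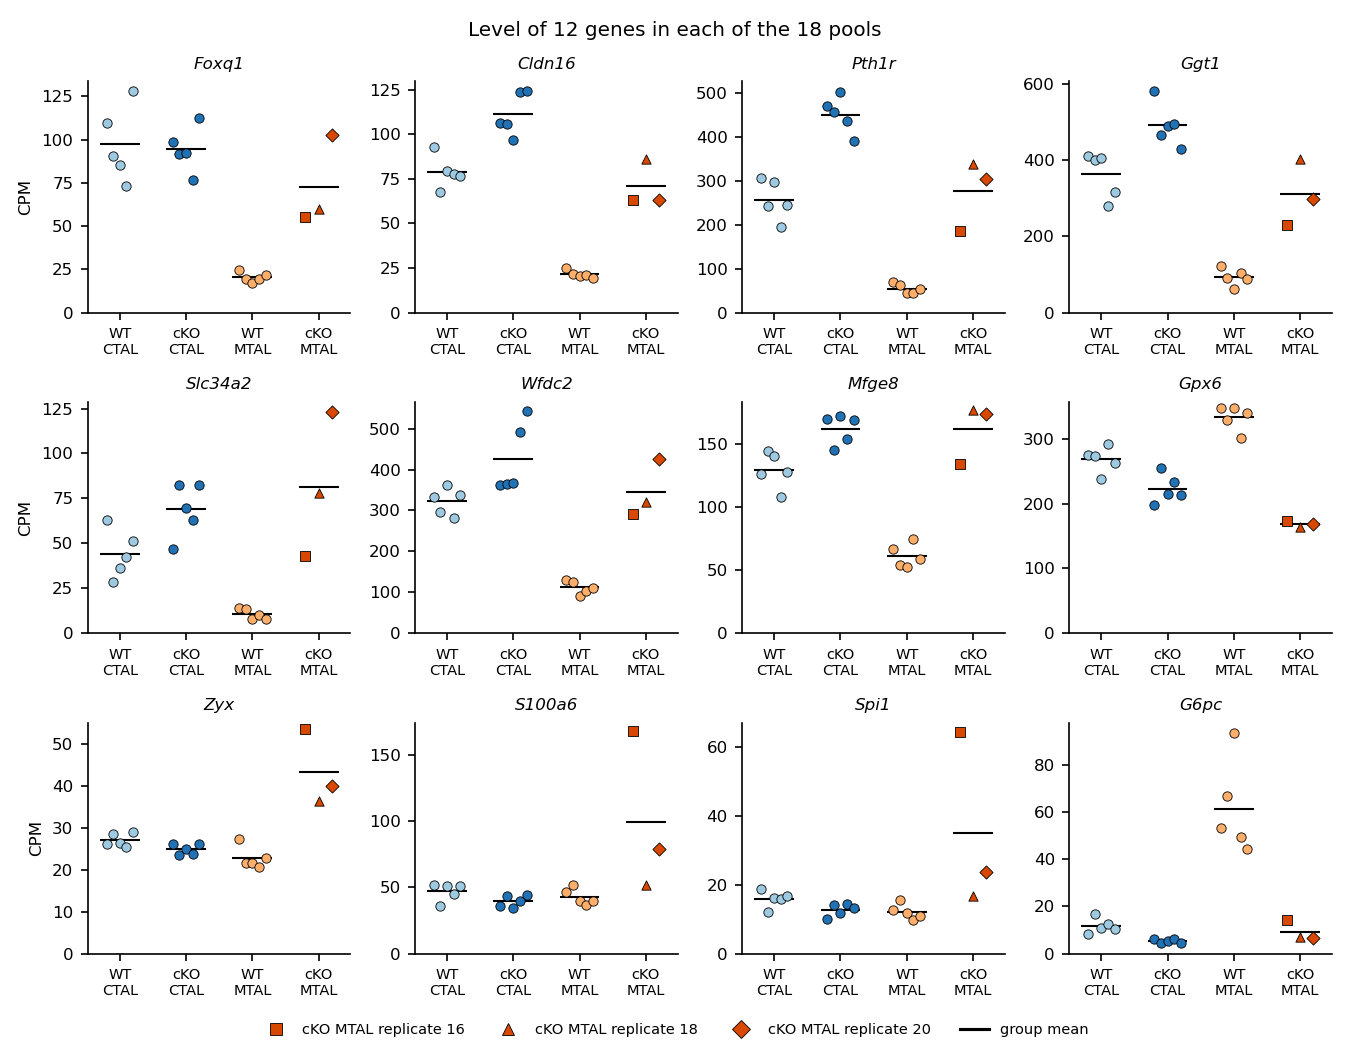
CPM of 12 genes with a called interaction in each pool (points, linear axes from 0), by group, with the group mean as a line; square, triangle and diamond are cKO MTAL replicates 16, 18 and 20. *Foxq1*, *Cldn16*, *Pth1r*, *Ggt1*, *Slc34a2*, *Wfdc2* and *Mfge8* are low in WT MTAL and higher in cKO MTAL. In cKO MTAL the means of *Cldn16*, *Pth1r* and *Ggt1* stay below those of cKO CTAL. *S100a6* and *Spi1* are highest in replicate 16.

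Read the other way, the interaction compares the segment difference of the WT pools with that of the cKO pools. A segment difference was called for 6.83% of all genes tested in WT (2.61% more and 4.23% less expressed in MTAL) and for 5.47% in cKO (3.9% more and 1.57% less expressed in MTAL). Of the 33 genes with a positive interaction, 21 were less expressed in MTAL than in CTAL in WT. In the cKO pools 15 of these 21 had no called segment difference and 6 were still less expressed in MTAL. These 6 include *Cldn16*, *Pth1r*, *Ggt1* and *Pigr*. Another 11 had no called difference in WT and were more expressed in MTAL in cKO, among them *Zyx*, *Tagln2*, *Ucp2*, *Psca* and *S100a6*. The remaining gene, *Aoc1*, encoding a diamine oxidase, was more expressed in MTAL in both genotypes. The segment differences share pools with the interaction and are given as its parts.

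The first of these patterns covered most genes whose call did not depend on any one pool. *Slc34a2*, which encodes the sodium phosphate cotransporter NaPi-IIb, was at 14.0, 13.4, 7.87, 10.1 and 7.90 CPM in WT MTAL and at 43.0, 77.9 and 123 CPM in cKO MTAL. In the CTAL it was at 28.3 to 63.0 CPM in WT and at 46.8 to 82.7 CPM in cKO, with overlap, and its interaction was 2.29 ± 0.37 (adjusted p = 0.00601). *Wfdc2*, a secreted protease inhibitor, was at 89.8 to 131 CPM in WT MTAL and at 292, 319.6 and 426 CPM in cKO MTAL, with an interaction of 1.23 ± 0.20. *Mfge8*, a secreted bridge between apoptotic cells and phagocytes, was at 52.7 to 74.7 CPM in WT MTAL and at 134, 177 and 174 CPM in cKO MTAL, with an interaction of 1.07 ± 0.16. In both, the WT CTAL level lay above that of every WT MTAL pool.

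*Ggt1*, the gamma-glutamyl transferase of the cell surface, *Slc22a17*, a receptor for lipocalin-2, *Adamtsl2*, a matrix protein, and *Eva1b* gave interactions of 1.30, 1.31, 2.14 and 1.24. *Adamtsl2* was at 35.2 to 67.2 CPM in WT CTAL and at 5.22 to 14.7 CPM in WT MTAL, and the cKO MTAL pools had 34.8, 22.7 and 36.8 CPM. *Pigr*, the receptor that carries antibodies across epithelia, also belonged to this pattern with 1.28, and without single pools it lost its call in 8 of 18 fits.

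*Zyx* and *Tagln2*, which encode proteins of the actin cytoskeleton, rose in MTAL and had no called segment difference in WT. *Zyx* was at 20.6 to 27.4 CPM in WT MTAL and at 53.6, 36.6 and 40.1 CPM in cKO MTAL, and at 25.5 to 29.1 and 23.7 to 26.2 CPM in WT and cKO CTAL. Its interaction was 1.05 ± 0.18 (adjusted p = 0.00717). *Tagln2* was at 29.4 to 32.7 CPM in WT MTAL and at 80.5, 82.4 and 61.6 CPM in cKO MTAL, and the CTAL groups overlapped. Its mean was lower in WT MTAL, at 31.7 CPM, than in WT CTAL, at 41.0 CPM. *Ucp2*, an uncoupling protein of mitochondria, rose in both segments, by 1.43 in MTAL and 0.63 in CTAL, with an interaction of 0.81 (adjusted p = 0.0314).

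Only 3 genes had a called negative interaction. *Gpx6*, a glutathione peroxidase, was at 348, 330.1, 348, 302 and 340.5 CPM in WT MTAL and at 173, 163 and 168 CPM in cKO MTAL. In the CTAL it was at 239 to 292 CPM in WT and at 199 to 255 CPM in cKO, with overlap. Its interaction, -0.72 ± 0.12 (adjusted p = 0.00788), kept its call in all fits without 1 pool. *G6pc*, the glucose-6-phosphatase that ends gluconeogenesis, fell in both segments, by 2.76 in MTAL and by 1.09 in CTAL on the log2 scale. It was at 44.5 to 93.6 CPM in WT MTAL and at 14.1, 6.84 and 6.49 CPM in cKO MTAL, against 8.21 to 16.6 and 4.48 to 6.23 CPM in WT and cKO CTAL. *Gabpb2*, a subunit of the transcription factor GABP, was at 95.1 to 143 CPM in WT MTAL and at 61.6, 61.8 and 60.9 CPM in cKO MTAL, with an interaction of -0.76 (adjusted p = 0.0457).

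Of the 36 genes, 35 had MTAL groups that did not overlap in CPM, beside 14.2% of all genes tested, and 11 had CTAL groups that did not overlap, beside 3.05%. These genes were called on the same values, so separate groups in MTAL go with the call and are no added support. Among the 33 positive ones the highest of the cKO MTAL pools was replicate 16 for 10 genes, replicate 18 for 12 and replicate 20 for 11. Over all genes tested the counts were 3940, 4161 and 4485 in the same order, so the 33 genes were spread much like all genes. The genes behind these counts differed in how firmly they were called.

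The dependence on single pools was measured by leaving out each pool and fitting the model again, 18 times. The number of called genes ran from 15, without cKO CTAL replicate 9, to 570, without cKO MTAL replicate 18. In that fit 503 genes were positive and 67 negative, all 36 genes were among them, and 534 were new. When replicate 16 of cKO MTAL was left out the count was 58, of which 27 belonged to the 36, and when replicate 20 was left out it was 27, of which 23 did. Among the WT pools, the count rose to 137 without MTAL replicate 13, to 67 without CTAL replicate 3 and to 60 without MTAL replicate 11. Over the 18 fits together, 624 different genes were called in 1 fit or more, and all 36 kept their sign in every fit.

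**Figure D3:**
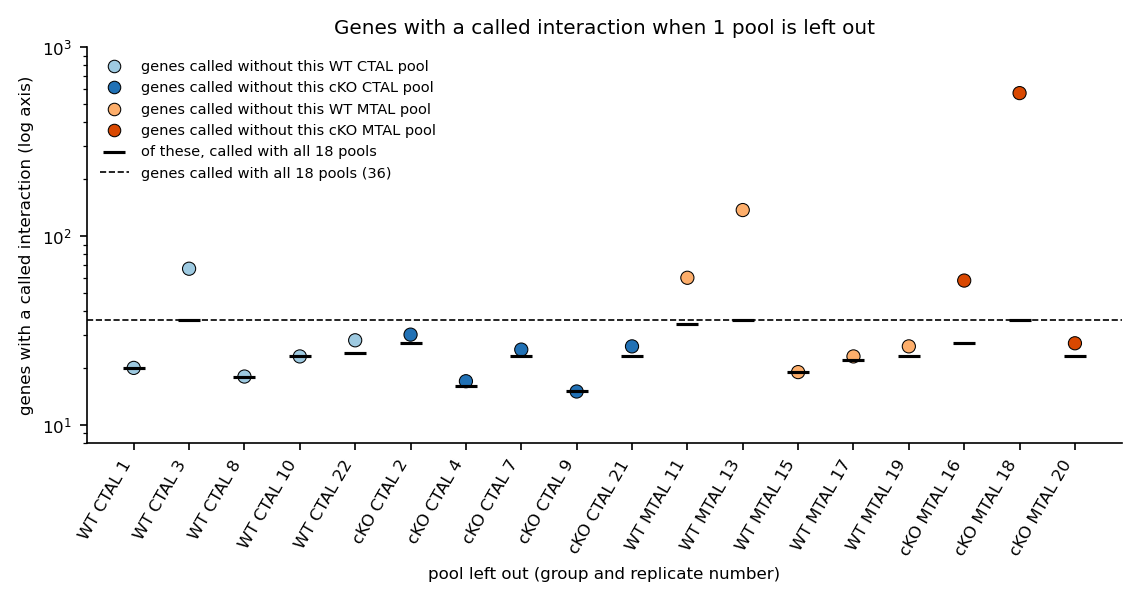
Number of genes with a called interaction when the pool named on the horizontal axis is left out (points, coloured by group; log axis), with the number of these that were also called with all 18 pools (short bars) and the count with all pools, 36 (dashed line). The count reaches 570 when cKO MTAL replicate 18 is absent and 137 when WT MTAL replicate 13 is absent, and it lies between 15 and 67 for the other 16 pools.

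The call held in all 18 fits for 15 genes. These include *Foxq1*, *Cldn16*, *Pth1r*, *Mfge8*, *Slc34a2*, *Wfdc2*, *C130074G19Rik*, *Zyx*, *Gpx6*, *Adamtsl2*, *Slc22a17*, *Eva1b*, *Tagln2* and *Ggt1*. With 14 of them positive, 12 were less expressed in MTAL than in CTAL in WT by a called difference, where 9 of the 19 other positive genes were. Among these 14 genes replicate 16 was the highest cKO MTAL pool for 1, *Zyx*, replicate 18 for 6 and replicate 20 for 7. Among the 19 others replicate 16 was the highest for 9. Over all genes tested replicate 16 was the highest for 3940 of 12586.

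Each of the 3 cKO MTAL pools stood apart in different genes. In replicate 16 these included some, but not all, of the genes known from white blood cells. *Spi1*, a transcription factor of myeloid cells, was at 16.6 and 23.6 CPM in replicates 18 and 20, at 64.3 CPM in replicate 16, and at 9.87 to 15.5 CPM in WT MTAL. Its interaction was 1.84 with all pools (adjusted p = 0.0398) and 1.06 without replicate 16 (adjusted p = 0.0837). *S100a6*, a calcium-binding protein of activated and injured cells, was at 168, 51.7 and 79.3 CPM in replicates 16, 18 and 20 and at 36.4 to 51.5 CPM in WT MTAL, with an interaction of 1.47, or 0.87 without replicate 16 (adjusted p = 0.0736).

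*Tmsb10*, which binds actin monomers, *Sh3bgrl3*, *Fmnl1*, a formin of leukocytes, and *Gm6807*, a processed pseudogene, were also highest in replicate 16. They lost their call without it, but not only then. *Spi1* and *Tmsb10* kept the call in 5 of the 18 fits, *S100a6* in 6, *Sh3bgrl3* in 5, *Gm6807* in 4 and *Fmnl1* in 16. The summed level of the 17 immune cell markers, of which 11 were tested, was 192 CPM in this pool, 118 and 112 CPM in replicates 18 and 20, and between 84.5 and 138 CPM in the 15 other pools. *Fcer1g*, which encodes a chain shared by immune receptors, was at 21.5 CPM in replicate 16, at 8.04 and 16.1 CPM in replicates 18 and 20, and at 4.50 to 7.76 CPM in WT MTAL. Other markers of the list did not set this pool apart in the same way. *Ptprc*, which encodes the leukocyte antigen CD45, was at 15.2, 7.34 and 13.8 CPM in replicates 16, 18 and 20, *Lyz2*, a lysozyme of myeloid cells, at 23.8, 20.9 and 17.4 CPM, and *Tyrobp*, an adaptor of immune receptors, at 0.814, 1.29 and 0.179 CPM, beside 0.275 to 3.48 CPM in WT MTAL. Of the 11 markers tested 0 had a called interaction. At an unadjusted p under 0.05, 4 were positive and 1 negative, beside 8.96% and 5.74% of all genes. The list's median was 0.52, or 0.38 without replicate 16. With a term for the summed markers in the model, 20 genes were called, 18 of them among the 36, and the 15 genes above kept their call except *Gpx6*, *Tagln2* and *Zyx*. That alternative was chosen after seeing the data. In bulk pools, fewer cells of a type and less RNA per cell cannot be told apart.

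In cKO MTAL replicate 18 the genes that stood out included some, but not all, of those of tubular injury. Of the same list, *S100a6* and *Vim* were lower in replicate 18 than in the other cKO MTAL pools. *Spp1*, which encodes osteopontin, was at 7872 CPM in replicate 18, at 2067 and 1970 CPM in replicates 16 and 20, and at 1020 to 1247 CPM in WT MTAL. *Clu*, which encodes clusterin, was at 891 CPM, with 137 and 136 CPM in replicates 16 and 20. *Lcn2*, the lipocalin NGAL, was at 283 CPM, with 22.2 and 46.2 CPM in the other two and 6.50 to 13.6 CPM in WT MTAL. In the CTAL, cKO replicate 2 was the highest of its group for these genes, at 4366, 405 and 85.0 CPM. The level of *Spp1* in cKO CTAL replicate 2 was thus above that of 2 of the 3 cKO MTAL pools.

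The list of tubular injury and repair held 29 tested members. In MTAL 19 rose and 0 fell, where 10.4% of all genes rose and 6.6% fell, and in CTAL 3 rose and 0 fell, where 0.461% and 0.342% did. Its interaction was called for 1 member, *S100a6*, and 10 were positive at an unadjusted p under 0.05 (34.5%, beside 8.96% of all genes), with 0 negative. The list's median interaction was 0.49 with all pools, 0.14 without cKO MTAL replicate 18 and 0.68 without replicate 20. The interaction of *Spp1* was 1.08 with all pools (adjusted p = 0.236) and 0.12 without replicate 18. For *Clu* the values were 1.75 and 0.25, and *Lcn2* turned from 1.33 to -0.44. Without replicate 18 other members were called, namely *Vim*, *Cd44*, *S100a6* and *S100a10*, which were highest in replicate 16. *Vim*, which encodes vimentin, was at 652, 165 and 309 CPM in replicates 16, 18 and 20 and at 199 to 222 CPM in WT MTAL.

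This pool also had a high level of proximal tubule markers, whose 18 genes summed to 958 CPM, beside 238 and 507 CPM in replicates 16 and 20 and 140 to 239 CPM in WT MTAL. The same sum was 957 CPM in cKO CTAL replicate 2 and 141 to 449 CPM in the other cKO CTAL pools. Of the 15 markers tested 0 had a called interaction and 3 were positive at an unadjusted p under 0.05 (20%, beside 8.96% of all genes). The list's median was 0.80, or 0.16 without cKO MTAL replicate 18. The part of these markers in the values of the injury list was not tested.

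In cKO MTAL replicate 20 the genes that stood out included markers of the collecting duct. *Aqp2*, the water channel of principal cells, was at 554 CPM there, at 40.5 and 50.6 CPM in replicates 16 and 18, and at 19.5 to 147 CPM in WT MTAL. Its interaction was 2.15 with all pools (adjusted p = 0.262) and -0.08 without this one. The 12 principal cell markers summed to 1099 CPM, beside 136 and 133 CPM in replicates 16 and 18 and 84.9 to 375 CPM in WT MTAL. The 12 intercalated cell markers summed to 350.5 CPM, beside 58.4 and 90.1 CPM. The list medians, 1.41 and 1.15 with all pools, were -0.47 and -0.67 without this pool.

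**Figure D4:**
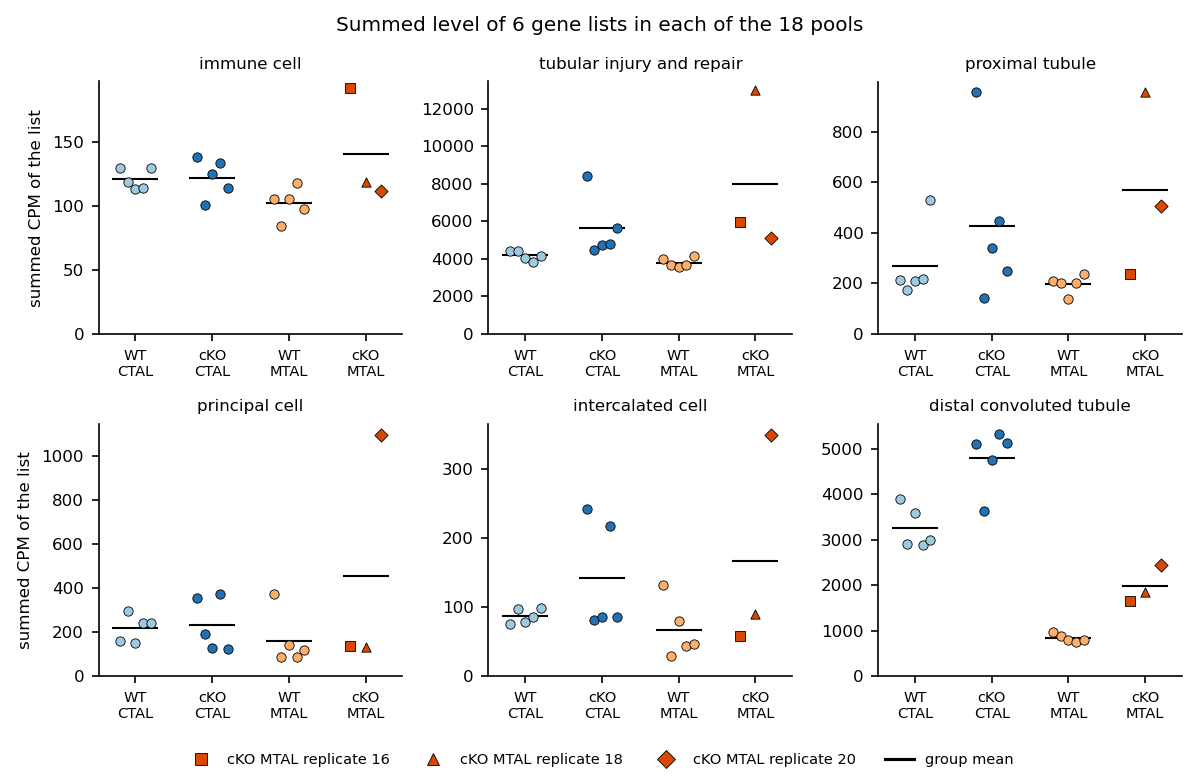
Summed CPM of the members of 6 gene lists in each pool (points, linear axes from 0), by group, with the group mean as a line; square, triangle and diamond are cKO MTAL replicates 16, 18 and 20. Immune cell markers are highest in replicate 16, injury genes in replicate 18 at 12973 CPM, and principal and intercalated cell markers in replicate 20, while the distal convoluted tubule markers are raised in all 3 cKO MTAL pools.

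The markers of the distal convoluted tubule, taken as a sum, lay above the WT MTAL range in all 3 cKO MTAL pools. Their sum was 755 to 957 CPM in WT MTAL, 1645, 1839 and 2448 CPM in cKO MTAL, 2881 to 3893 CPM in WT CTAL and 3620 to 5322 CPM in cKO CTAL. The largest share came from *Klk1*, the kallikrein gene, which was at 371 to 535 CPM in WT MTAL and at 927, 1063 and 1261 CPM in cKO MTAL, with an interaction of 0.79 (adjusted p = 0.0752). The defining marker *Slc12a3*, which encodes the cotransporter NCC, was at 1.59 to 2.72 CPM in WT MTAL and at 5.26, 4.27 and 1.79 CPM in cKO MTAL, with an interaction of -0.04 ± 0.99. Of 7 members tested 0 were called and the median was 0.75. Without cKO MTAL replicate 20, which left 6 members tested, the median was 0.21. The list was not found to differ between the segments beyond the threshold, and its part in the values of *Foxq1*, which rose in the same pools, was not tested.

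The markers of the thick limb itself were present in every pool. The 14 markers summed to 55819 to 67566 CPM in WT MTAL, 72362 to 85674 CPM in cKO MTAL and 86922 to 103866 CPM in the CTAL pools, with *Umod* as the largest component. Of 15 endothelial markers 9 fell in MTAL (6.6% of all genes did) and 1 in CTAL (0.342% of all genes). The interaction was called for 0 of them, with 0 positive and 2 negative by the unadjusted p. Their median interaction was -0.10, or -0.45 without cKO MTAL replicate 20 and 0.04 without WT CTAL replicate 1. The single urothelial marker with a called interaction was *Psca*, at 0.511 to 2.24 CPM in WT MTAL and at 15.99, 30.6 and 17.1 CPM in cKO MTAL, and at 0.547 to 0.945 and 0.815 to 3.67 CPM in WT and cKO CTAL. Its interaction was 3.07 ± 0.65 (adjusted p = 0.045).

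Other called genes had the same direction in all fits without being called in all. *Wnt10a*, a Wnt ligand, was at 0.870 to 3.15 CPM in WT MTAL and at 15.99, 35.5 and 22.5 CPM in cKO MTAL, and rose in CTAL as well, by 1.40 (adjusted p = 0.0452), with an interaction of 2.37 ± 0.50. *Tubb2b* and *Tubb2a*, near-identical tubulins whose reads may be shared, had 1.44 and 0.78. *Cd9*, a tetraspanin, rose by 1.97 in MTAL and by 0.87 in CTAL, with 1.11. *Glul*, the glutamine synthetase, had 1.16, *Rnf19b* 1.19 and *Il17re*, a receptor of interleukin-17 ligands, 0.68. *Gm42793*, a transcript model that lies within *Spp1* on the same strand, had 3.06, and reads of the 2 genes may not be separable.

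In most of the other function lists no member had a called interaction. At an unadjusted p under 0.05 the interaction was positive for 6 of 32 genes of cAMP, vasopressin and prostaglandin signalling (18.8%), 3 of 17 of the osmolyte response (17.6%) and 5 of 31 tight junction partners (16.1%), beside 8.96% of all genes tested. Among 21 circadian clock genes 2 rose and 8 fell in MTAL, and 1 rose and 6 fell in CTAL. These counts stand beside 6.6% of all genes that fell in MTAL and 0.342% in CTAL. The interaction was called for 0 of the 21, with a median of 0.05. By the unadjusted p, 0 were positive and 1 was negative, beside 8.96% and 5.74% of all genes. *Dbp*, a clock output gene, was at 53.8 to 168 CPM in WT MTAL, 19.1 to 47.5 CPM in cKO MTAL, 80.9 to 177 CPM in WT CTAL and 16.6 to 46.6 CPM in cKO CTAL, and fell by 1.48 and 1.80 on the log2 scale in MTAL and CTAL. The groups overlapped in neither segment.

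The oxidative phosphorylation genes, which encode the respiratory chain, moved little in either segment. Of 74 tested, 1 rose and 1 fell in MTAL, beside 10.4% and 6.6% of all genes, and 0 changed in CTAL. The interaction was called for 0, with a median of 0.04. It reached an unadjusted p under 0.05 for 3 positive and 1 negative, beside 8.96% and 5.74% of all genes. Of 33 fatty acid oxidation genes 9 fell and 2 rose in MTAL, beside 6.6% and 10.4% of all genes, and 0 were called in CTAL, while the interaction was called for 0, with 2 positive and 5 negative by the unadjusted p and a median of -0.07. Of 24 cholesterol synthesis genes 4 rose in MTAL and 1 in CTAL, beside 10.4% and 0.461% of all genes. The interaction was called for 0, and the median was -0.17, with 0 positive and 1 negative by the unadjusted p.

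**Figure D5:**
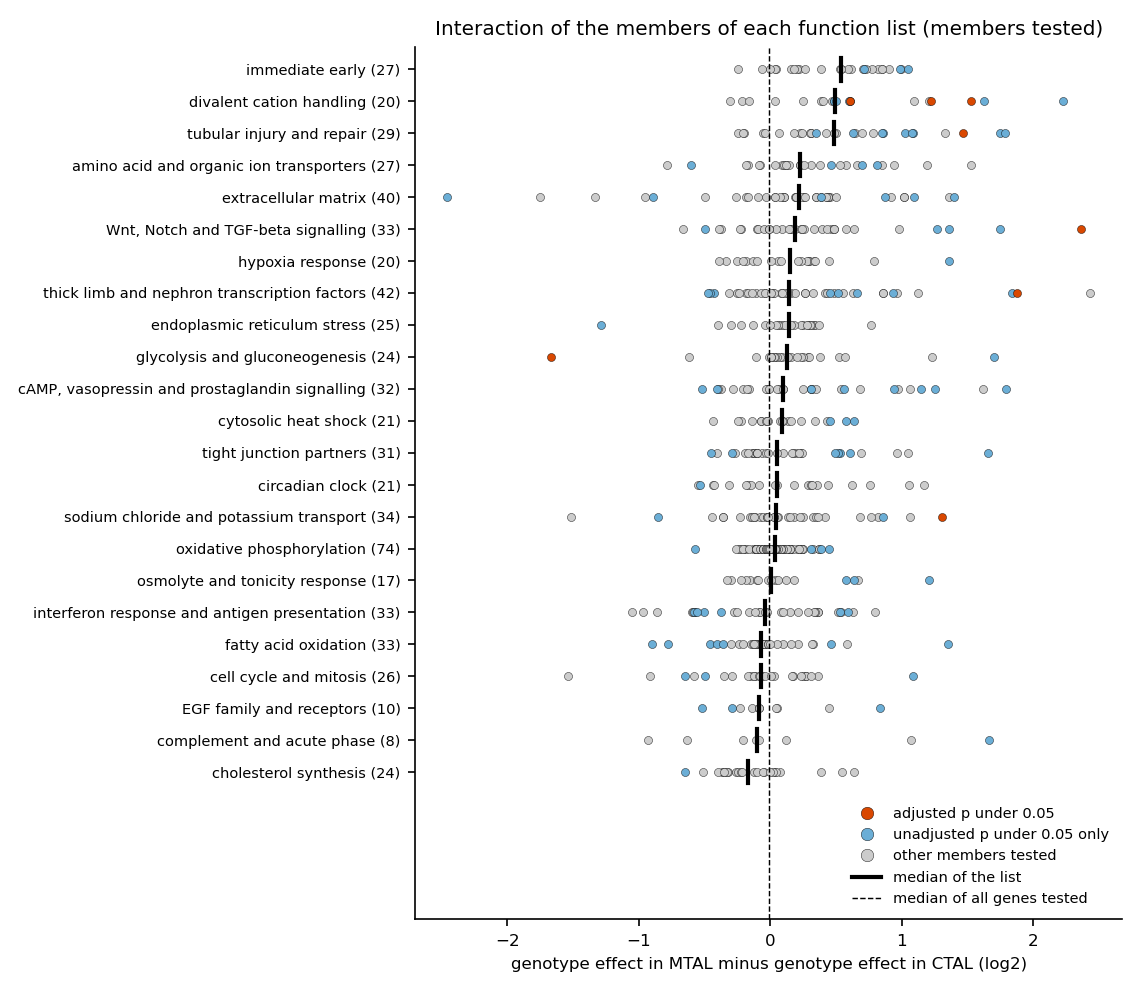
Interaction of each tested member of 23 function lists (points), on the log2 scale, with the list's median as a thick bar and the median of all genes tested as a dashed line; orange marks members with a called interaction and blue those with an unadjusted p under 0.05 only. The lists of immediate early genes, divalent cation handling and tubular injury have medians between 0.49 and 0.54, and oxidative phosphorylation is centred at 0.04.

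The function list with the highest median, 0.54, was that of immediate early genes, which respond within minutes to handling and other stimuli. The list's median effect was -0.53 in CTAL and -0.06 in MTAL. Of 27 tested, 0 were called and 3 were positive by the unadjusted p, *Ier2*, *Ier5* and *Junb* (11.1%, beside 8.96% of all genes tested). The list summed to 9636 CPM in WT MTAL replicate 11 and to 2625 to 3978 CPM in the other 4 WT MTAL pools, beside 4321 to 4622 CPM in cKO MTAL, 2074 to 3971 CPM in WT CTAL and 1480 to 2499 CPM in cKO CTAL. The sums of the 3 cKO MTAL pools thus lay below that of replicate 11 and above those of the other 4. Without replicate 11 the median interaction was 0.95 and 5 members were called, all positive, *Jun*, *Fosb*, *Junb*, *Fos* and *Egr1*. Without WT MTAL replicate 17 the median was 0.42.

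Of the lists that the study had compiled, 218 genes of its thick limb list were used here, which is not the whole of that list. The interaction was called for 5 of them, among them *Foxq1*, *Cldn16*, *Pth1r* and *Umod*, all positive, beside 0.286% of all genes. The list's median was 0.05. By the unadjusted p 31 of the 218 were positive and 13 negative (14.2% and 5.96%, beside 8.96% and 5.74% of all genes). The study's 213 phosphatases had 1, *G6pc*, with a median of -0.03, and its 121 transcription factors had 1, *Foxq1*, with -0.07. Its 478 kinases had 0, with a median of -0.01. By the unadjusted p 38 kinases were positive and 22 negative (7.95% and 4.6%), which is no more than the shares of all genes. Every gene of these lists as used here was among the genes tested. Among 42 transcription factors of the thick limb and the nephron, *Foxq1* alone was called. *Irx3*, a homeobox factor, was at 23.8 to 44.96 CPM in WT MTAL and at 63.7, 52.9 and 77.7 CPM in cKO MTAL, with an interaction of 0.93 (adjusted p = 0.13).

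The pools with *Xist* bear on all of these values, since they fill most of WT MTAL. With a term for these pools in the model 21 genes were called, 18 of them among the 36, and these 18 included all 15 genes that were called in every fit without 1 pool. When only the 11 pools with *Xist* under 5 CPM were fitted, which left 1 WT MTAL pool, replicate 13, edgeR's quasi-likelihood test called 0 genes, 1004 genes had an unadjusted p under 0.05, and the smallest adjusted p was 0.0906. The lone WT MTAL pool was there assumed to vary like the pools of the other groups. All 36 genes kept their sign in that fit, which is no independent check, since they were called on data that include these 11 pools. The fit was added after the data had been seen.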

How the data were processed

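The 18 pools were sequenced as strand-specific libraries of polyadenylated RNA, and per the labels and the methods the reads were trimmed, aligned to mm10 and quantified by the authors. The submitters' processing notes name FastQC, Trimmomatic, DRAGEN and Picard. Estimated counts per gene, deposited by the authors, were rounded to whole numbers, where raw counts had been planned for. TPM values, deposited by the authors beside them, served as an alternative. Whether counting used the strand, and how multi-mapping reads were treated, is not given in the sources used here. Total estimated counts were 10824328 to 62339991 per pool, and 20364 to 25265 genes had a count. The pools share no replicate number between groups.

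A model with 4 group means was fitted with edgeR 4.0.16 (R 4.3.3, quasi-likelihood F test, TMM factors, 12586 genes reaching 3 CPM in 3 pools or more), and the interaction was taken as a contrast with Benjamini-Hochberg adjustment over all genes. CPM refer to TMM-scaled library sizes. Alternatives used DESeq2 1.42.0, limma 3.58.1 on weighted counts and on log2(TPM + 1) or log2(TPM + 0.1), other scalings and filters, terms for *Xist* or immune markers, and each pool left out. On simulated data with an added log2 difference of 1 the interaction recovered 108 of 196 changed genes among 12457 with 4 false calls, and with a difference of 2 it recovered 170 of 199 among 12458 with 4 false calls.

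Named were *Cldn10*, the genes measured in the study, the called genes with the largest differences that kept or lost the call without single pools (predicted models left out), called members of each list, and called markers. Genes named beyond this rule, such as *Kl*, *S100g*, *Klk1*, *Slc12a3*, *Spp1*, *Clu*, *Lcn2*, *Vim*, *Fcer1g* and *Dbp*, and the remaining called genes, were chosen after their values were seen. The comparison and the lists were chosen with earlier results of these data known. Positions are from GENCODE M21 (GRCm38), which held 55141 of the 55401 gene identifiers. Some results are not reported here.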

Additional observations from a re-analysis of the deposited data

Results flagged for a closer look

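The genotype effect differed between the segments, by the test of the interaction, for these named genes. The log2 difference was 1.88 for *Foxq1*, 1.23 for *Cldn16*, 1.53 for *Pth1r*, 1.07 for *Mfge8*, 2.29 for *Slc34a2*, 1.23 for *Wfdc2* and 1.05 for *Zyx*. It was 2.14 for *Adamtsl2*, 1.31 for *Slc22a17*, 1.24 for *Eva1b*, 1.30 for *Ggt1* and -0.72 for *Gpx6*, and all of these kept the call in all 18 fits without 1 pool. It was 1.55 for *Fmnl1*, 1.44 for *Tubb2b*, 1.84 for *Spi1*, 1.47 for *S100a6*, 2.37 for *Wnt10a*, 3.07 for *Psca*, 0.61 for *Umod*, -1.67 for *G6pc* and -0.76 for *Gabpb2*, and these lost the call in at least 1 of those fits.

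Single pools stood far from the others of their group in 9 of 117 pairs of a gene and a group of 5, by Dixon's test at the 95% level, where chance gives about 1 in 20. In WT MTAL replicate 13, *Psca* was at 2.24 CPM (group median 0.696) and *Cldn14* at 5.04 CPM (group median 1.56). In WT MTAL replicate 17, *Irx3* was at 23.8 CPM (39.9), the lowest of the group. *Aqp2* was at 147 CPM in WT MTAL replicate 11 (33.1), and *Bsnd* at 147 CPM in WT MTAL replicate 15, the lowest of its group (233). In the CTAL, *Tubb2b* was at 98.9 CPM in cKO replicate 21 (58.2), *Slc12a3* at 60.4 CPM in cKO replicate 2 (11.5), *Wnt10a* at 7.80 CPM in WT replicate 8 (3.99) and *Irx3* at 84.8 CPM in WT replicate 22 (50.6).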

How the results depend on the processing

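All 36 genes with a called interaction kept their sign in each alternative and in each fit without 1 pool, but their number varied, and 0 genes kept the call in every alternative. The called interactions, with positive and negative ones in that order, were 79 (74 and 5) without the filter on low counts, 337 (289 and 48) by edgeR's likelihood ratio test, 353 (299 and 54) by DESeq2's likelihood ratio test and 379 (327 and 52) by its Wald test. They were 20 (19 and 1) by limma voom with pool weights, 7 (7 and 0) on log2(TPM + 1) and 8 (8 and 0) on log2(TPM + 0.1). With WT CTAL replicate 1 taken as cKO they were 17 (16 and 1), with the *Xist* term 21 (19 and 2), with the immune term 20 (18 and 2), and in the pools with *Xist* under 5 CPM 0 (0 and 0). The last 2 were chosen after seeing the data. The other scalings, the stricter filter and the robust fit gave 34 to 49 calls. Without 1 pool the interaction calls ran from 15 to 570, the positive ones from 14 to 503 and the negative ones from 1 to 67.

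The genotype effect in MTAL was called for 523 genes by limma voom, 1165 with the *Xist* term, 158 in the pools with *Xist* under 5 CPM, 1179 with the immune term and 845 with the MTAL pools alone, and for 1351 to 2204 without 1 pool, the lowest without cKO MTAL replicate 20. In CTAL the count was 190 by the likelihood ratio test, 263 by limma voom, 40 and 38 on log2(TPM + 1) and log2(TPM + 0.1), 4 in the pools with *Xist* under 5 CPM, and 57 to 127 without 1 pool. The cause of these changes was not tested. No paired analysis was possible because the groups share no replicate numbers. With 3 cKO MTAL pools the median standard error of the interaction was 0.25, beside 0.19 for the effect in MTAL and 0.16 for that in CTAL.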
